A study of Bos taurus with 16 samples.

Results

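The integrated stress response is described here through 10 genes, ATF4, ATF5, DDIT3, TRIB3, CHAC1, SESN2, DDIT4, ASNS, PHGDH and PSAT1, in the round and sirloin muscles of newborn Hanwoo calves (Bos taurus). All 10 were matched by gene ID among the 34109 listed genes. They are textbook members of the pathway, and were chosen by the measured diet differences in each muscle, with the opposite trends of TRIB3 in round and sirloin muscle and the values of single calves in view. The diet values below are therefore given as a description, without support from any test. The comparison of round with sirloin muscle was not used in that choice. Since values of single calves were in view, its counts are also given as a description.

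Kinases that sense amino acid shortage, misfolded protein in the endoplasmic reticulum, haem deficiency or double-stranded RNA phosphorylate the translation factor eIF2. General protein synthesis then slows, while the mRNA of the transcription factor ATF4 is translated more. ATF4 and its partners raise genes for amino acid synthesis, amino acid uptake and tRNA charging, and also genes that act as brakes or promote cell death. In skeletal muscle this response is known from fasting, immobilisation and mitochondrial disease.

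The control calves (n = 4) came from cows fed 100% of their nutritional requirement, and the treated calves (n = 4) from cows fed 150% of it in mid to late pregnancy. No genetic modification or drug distinguished the groups, and both were Hanwoo. The study's methods state that all calves were male, were kept from colostrum and were euthanised with pentobarbital soon after birth. Each calf gave a round library and a sirloin library, so that 16 libraries came from 8 animals. The labels number the replicates of each muscle and diet but do not name the calf. Libraries with the same diet and number were taken as the same calf, since the sample descriptions number both muscles alike.

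The libraries held between 44473011 and 72446933 counts in round muscle and between 44863173 and 72165291 in sirloin muscle, and control replicate 2 was the deepest in both. The 8 skeletal muscle markers were above 0 in all groups and summed to between 67548 and 111644 TPM, where TPM is a level scaled for transcript length and library size. The sirloin library of treated replicate 4 stood apart. Its 4 adipocyte markers summed to 951 TPM, against 0.449 to 3.10 TPM in the other 15 libraries, and its 7 immediate early genes summed to 927 TPM, against 75.8 to 661 TPM. The 661 TPM was in the round library of the same calf, and the next highest sum was 259 TPM. LEP was at 0 in both control groups and CIDEC in the treated round group. Among the round libraries, that of control replicate 2 had the highest sum of the 4 tendon markers, at 160 TPM, against 16.4 to 45.8 TPM in the other 7. Results that rest on these calves are also given without them.

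The 10 genes spanned a wide range of levels. By the median TPM of the 16 libraries, ATF4 was highest at 509 and DDIT4 followed at 194. ASNS (31.3), PHGDH (23.0), ATF5 (22.6) and DDIT3 (20.0) were intermediate, CHAC1 (5.26) and PSAT1 (3.95) were lower, and SESN2 (0.572) and TRIB3 (0.365) were lowest. The ranges of every pair of neighbours in this order overlapped. ATF4 was also the steadiest gene, with a 1.70-fold spread between the lowest and the highest round library and a 2.27-fold spread in sirloin muscle. SESN2 had the widest spread among round libraries (28.7-fold), and PHGDH among sirloin libraries (254-fold, against 13.9-fold in round muscle).

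**Figure D1:**
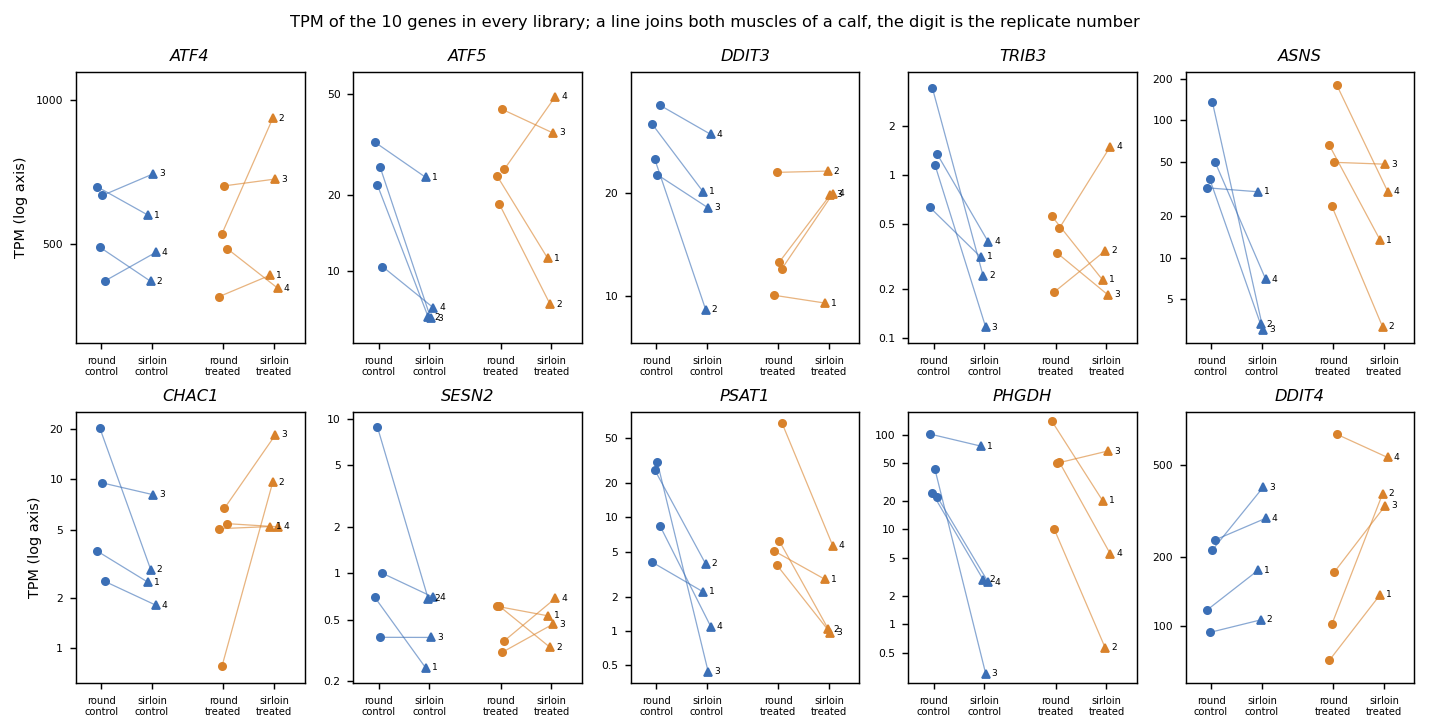
TPM of each of the 10 genes on a log axis, with circles for round and triangles for sirloin libraries, blue for control and orange for treated calves, and a line joining both muscles of a calf. ASNS and PSAT1 lay lower in the sirloin muscle of every calf, TRIB3 in round muscle lay between 0.633 and 3.43 TPM in the control and between 0.191 and 0.559 TPM in the treated calves, and ATF4 stayed between 389 and 916 TPM.

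The first comparison asked how the pathway differed between the muscles of the same animals. PSAT1, of serine synthesis, had a log2 fold change (sirloin against round) of -3.15 (SE 0.69), and passed the adjusted threshold with the calf as a block or with DESeq2, but not in the fit without a block. ASNS, which makes asparagine, had -2.22 (SE 0.62), and PHGDH, also of serine synthesis, -1.39 (SE 0.92), and neither passed with all calves. In the blocked fit the 3 values were -2.72, -2.59 and -2.86, so their order depended on the fit. ATF4 had 0.02 (SE 0.20). In bulk tissue, fewer cells of a type and less RNA per cell cannot be told apart.

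PSAT1, an aminotransferase of serine synthesis, had TPM values of 4.02, 26.1, 30.4 and 8.45 in the round muscle of control replicates 1 to 4, and of 5.05, 3.80, 6.17 and 68.0 in treated replicates 1 to 4. In sirloin muscle it had 2.21, 3.89, 0.435 and 1.09 TPM in the control and 2.84, 1.03, 0.966 and 5.63 TPM in the treated calves. Every calf was lower in sirloin muscle, although the ranges of both muscles overlapped across calves. The largest gap was in control replicate 3, at -6.09 on the log2 scale of CPM (counts scaled to library size), and the smallest in control replicate 1, at -0.89. With all libraries treated as separate, PSAT1 did not pass the threshold (edgeR's quasi-likelihood test, adjusted p = 0.155). With the calf as a block it did (edgeR, log2 fold change -2.72, SE 0.48, adjusted p = 0.0349), as it did with DESeq2 (adjusted p = 0.00249). With each calf left out of the blocked fit in turn, its adjusted p ranged from 0.0152 to 0.112 and was under 0.05 in 3 of 8 fits, those without control replicate 1 (0.0152), control replicate 3 (0.0417) and treated replicate 4 (0.0342). Over all genes, those 3 fits called 153, 42 and 322, and the blocked fit with all calves called 109.

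ASNS makes asparagine from aspartate and glutamine. Its round TPM values were 32.3, 37.3, 136 and 50.1 in the control and 66.0, 23.8, 49.5 and 180 in the treated calves. In sirloin muscle they were 30.2, 3.28, 3.01 and 6.98 TPM in the control and 13.5, 3.15, 47.9 and 30.3 TPM in the treated calves. ASNS was lower in sirloin muscle in 8 of 8 calves, but nearly level in control replicate 1 (-0.14, log2 CPM) and treated replicate 3 (-0.17). It did not pass the threshold without a block (edgeR, adjusted p = 0.464) or with the calf as a block (log2 fold change -2.59, SE 0.51, adjusted p = 0.0531). The blocked adjusted p was under 0.05 without control replicate 1 (0.0111) or treated replicate 3 (0.0387), in fits that called 153 and 59 genes in all.

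PHGDH catalyses the first step of serine synthesis from glycolysis. Its round TPM values were 102, 24.1, 43.5 and 21.9 in the control and 139, 10.01, 49.98 and 51.3 in the treated calves. In sirloin muscle they were 75.9, 2.95, 0.299 and 2.77 TPM in the control and 20.1, 0.562, 67.2 and 5.53 TPM in the treated calves. Control replicate 1 and treated replicate 3 kept high sirloin levels, and in the other 6 calves the sirloin library was lower by at least 2.93 on the log2 CPM scale. The log2 fold change was -1.39 (SE 0.92, edgeR, adjusted p = 0.914) without a block and -2.86 (SE 0.65, adjusted p = 0.0838) with the calf as a block. The value without a block is sensitive to single calves, and was -2.78 without control replicate 1. With a calf left out of the blocked fit, the adjusted p (edgeR) was under 0.05 without control replicate 1 (0.0375) or treated replicate 3 (0.0499). In the other 6 fits it was 0.0953 to 0.215.

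Among the brakes and effectors, TRIB3 and SESN2 had negative and DDIT4 positive differences. TRIB3 had a log2 fold change of -1.09 (SE 0.46, edgeR, adjusted p = 0.756) and was lower in sirloin muscle in 6 of 8 calves, and without treated replicate 4 the value was -1.62. SESN2 had -1.17 (SE 0.49, adjusted p = 0.748), but only -0.37 without control replicate 2. DDIT4 had 0.39 (SE 0.44, adjusted p = 1), and was higher in sirloin muscle in 7 of 8 calves. With the calf as a block, DDIT4 was at 0.60 (SE 0.20, edgeR, adjusted p = 0.254). With a calf left out of that fit, its adjusted p was 0.0342 without treated replicate 4 and 0.360 to 0.590 in the other 7 fits. The fit without treated replicate 4 called 322 genes in all, the most of the blocked fits.

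Of the 3 transcription factors, ATF5 had the largest difference between the muscles. ATF5 had a log2 fold change of -0.62 (SE 0.41, edgeR, adjusted p = 0.905) and was lower in sirloin muscle in 7 of 8 calves. The exception was treated replicate 4. The blocked value was -0.88 (SE 0.25, edgeR, adjusted p = 0.158), and with a calf left out its adjusted p was 0.0265 without treated replicate 4 and 0.145 to 0.405 in the other 7 fits. As for DDIT4, the fit that called ATF5 was the one that called 322 genes in all. DDIT3 had -0.21 (SE 0.25), and ATF4 was higher in sirloin muscle in 4 calves and lower in 4. CHAC1, which degrades glutathione, had -0.12 (SE 0.47), and its direction turned when control replicate 2 was left out (0.25).

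Counted together, 8 of the 10 genes had a negative log2 fold change in sirloin against round muscle, where 50.6% of all 22877 tested genes did. Of the 10, 4 were lower at an unadjusted p under 0.05 and none higher, namely PSAT1, ASNS, SESN2 and TRIB3, where 6.33% of all genes passed that p in either direction and 3.3% lower. None of the 10 passed the adjusted threshold of 0.05 with edgeR, where 14 genes in all did (0.0612%). With the calf as a block, 1 of the 10 passed (PSAT1), beside 0.476% of all genes, and with DESeq2 also 1 (PSAT1), beside 0.363%. With limma-voom the count was 0. The median of the 10 log2 fold changes was -0.86, against -0.004 over all genes. Of the 4 smooth muscle markers 3 were also lower in sirloin muscle, with a list median of -0.72. CNN1 had -1.24 (SE 0.42) and ACTG2 -1.07 (SE 0.37), lower in 7 and 8 of 8 calves (ACTG2 passed in the blocked fit, edgeR, adjusted p = 0.0413), and MYH11 had -0.37 (SE 0.32), while DES, which muscle fibres also express, had 0.36 (SE 0.20). The 4 summed to between 3286 and 7612 TPM in round and between 4039 and 8430 TPM in sirloin libraries, and their part in the differences of the 10 genes was not tested. ASNS and PSAT1 were lower in CPM in the sirloin muscle of every calf, as were 1.15% of all genes.

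The other genes of the pathway were taken from 4 lists of 61 genes in all. These lists were chosen with earlier results of these data known, so their counts are descriptive. Of the 61 genes, 49 were lower and 12 higher in sirloin muscle, 22 lower and 1 higher at an unadjusted p under 0.05, and 1 was past the adjusted threshold. Over all 22877 genes, 50.6% were lower, 3.3% were lower at that p, and 0.0612% passed the adjusted threshold. In the list of 25 other ATF4 targets, 22 were lower, 12 of them at an unadjusted p under 0.05, and the median log2 fold change was -0.66. MTHFD2, a mitochondrial folate enzyme that uses serine-derived carbon, was the gene that passed (log2 fold change -2.34, SE 0.37, edgeR, adjusted p = 0.0128). It ranged from 4.67 to 22.9 TPM in round and from 0.636 to 5.96 TPM in sirloin muscle. Its call was lost without control replicate 3 or control replicate 4, and held in 6 of 8 fits that left out a calf. In the blocked fit it held in 3 of 8 cases (adjusted p 0.0168 to 0.0863). EIF4EBP1, a repressor of translation, was the gene higher at that p (0.73, SE 0.32, edgeR, adjusted p = 0.765).

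PSPH, SLC7A5, ALDH1L2 and CEBPG were picked after their values were seen. PSPH, the last enzyme of serine synthesis, had a log2 fold change of -3.01 (SE 0.63, edgeR, adjusted p = 0.132), the same direction as PHGDH and PSAT1 before it in the route. SLC7A5, a carrier of large neutral amino acids, had -2.08 (SE 0.44, adjusted p = 0.132). ALDH1L2, a mitochondrial folate enzyme, had -1.50 (SE 0.52, adjusted p = 0.695), and CEBPG, a partner of ATF4, had -0.96 (SE 0.25, adjusted p = 0.35). All 4 were lower in the sirloin muscle of 8 of 8 calves. With the calf as a block, 4 of the 61 genes passed, namely MTHFD2 (adjusted p = 0.0242), ALDH1L2 (0.0266), WARS1 (0.0357) and SLC7A5 (0.0446). When a calf was left out of that fit, ALDH1L2 and WARS1, like MTHFD2, passed in 3 of 8 fits, those without control replicate 1, treated replicate 3 or treated replicate 4, and SLC7A5 in 1 of 8, that without treated replicate 4. The highest adjusted p was 0.0900 for ALDH1L2, 0.125 for WARS1 and 0.143 for SLC7A5. Over all genes, the fits without control replicate 1, treated replicate 3 and treated replicate 4 called 153, 59 and 322. Of the 61 genes, DESeq2 called 6 and limma-voom 1. Over all 22877 genes, 0.476% passed with the calf as a block and 0.363% with DESeq2, and limma-voom called 21.

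**Figure D2:**
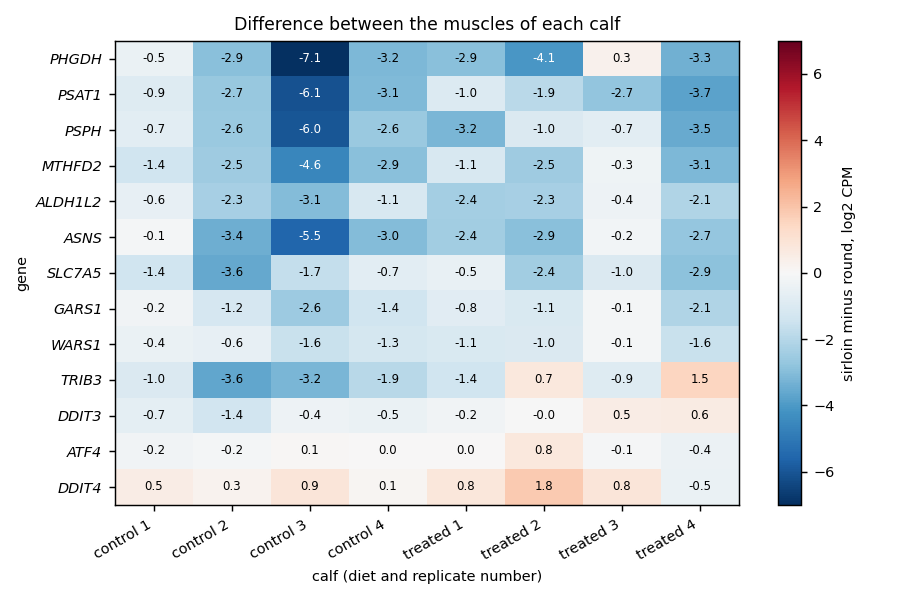
Difference between the sirloin and the round library of each calf in log2 CPM, for 7 of the 10 genes and 6 other ATF4 targets or tRNA synthetases (rows) in 8 calves (columns), with blue for lower in sirloin muscle. Control replicate 3 held the largest gaps for PHGDH (-7.1), PSAT1 (-6.1) and PSPH (-6.0), and control replicate 1 and treated replicate 3 had small gaps for PHGDH and ASNS.

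The aminoacyl-tRNA synthetases, which charge tRNAs with amino acids, were lower for 11 of 12 genes, with 9 at an unadjusted p under 0.05, a median of -0.64 and none past the adjusted threshold. GARS1 had a log2 fold change of -1.26 (SE 0.28, edgeR, adjusted p = 0.179), SARS1 -1.02 (SE 0.26, adjusted p = 0.34) and WARS1 -0.90 (SE 0.21, adjusted p = 0.251). The list of eIF2 kinases, eIF2, eIF2B and eIF2 phosphatase subunits lay closer to 0. Of its 14 genes 8 were lower and 6 higher, the median was -0.04, and EIF2S2, the beta subunit of eIF2, was the gene at an unadjusted p under 0.05 (-0.38, SE 0.17), where the blocked fit gave 3 genes. Of 10 genes of the unfolded protein response of the endoplasmic reticulum, 8 were lower, with a median of -0.42. At an unadjusted p under 0.05 the count was 0 without a block, 1 with DESeq2 (PDIA4) and 4 with the calf as a block (HSPA5, PDIA4, HSP90B1 and XBP1, all lower), and none passed the adjusted threshold. Over all 22877 genes, 1447 were at that p without a block, 1228 with DESeq2 and 2555 with the calf as a block.

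**Figure D3:**
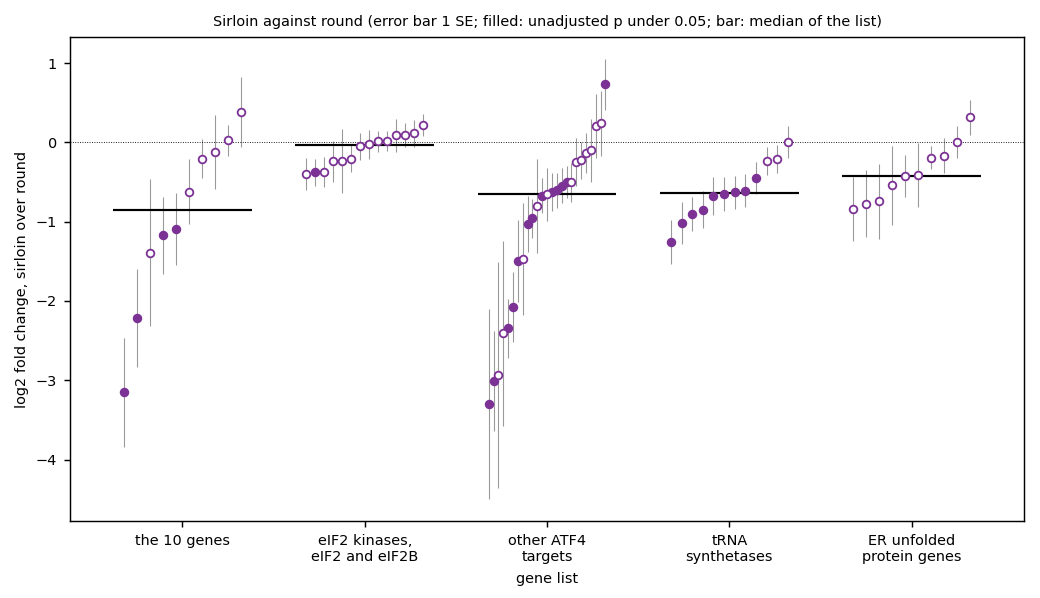
Log2 fold change in sirloin against round muscle for each of the 10 genes and for the 4 other lists, with bars of 1 SE, filled points at an unadjusted p under 0.05 and a black bar at the median. The medians of the 10 genes (-0.86), the other ATF4 targets (-0.66) and the tRNA synthetases (-0.64) lay below that of the eIF2 list (-0.04).

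The next comparison, the one the study was designed for, set treated against control calves in round muscle. TRIB3, DDIT3 and SESN2 had the most negative differences of the 10 genes, while ASNS, PHGDH and PSAT1 differed by less than their standard errors. The 5 red blood cell markers were higher in treated calves in both muscles (median log2 fold changes of 1.48 in round and 1.31 in sirloin muscle, 0 past the adjusted threshold). They summed to between 13.4 and 36.6 TPM in treated and 3.88 and 18.8 TPM in control round libraries, and to between 13.0 and 36.0 TPM and 3.84 and 14.5 TPM in sirloin libraries. The 4 immune markers were highest in treated replicate 2, at 15.2 TPM in its round library, against 3.68 to 7.86 TPM in the other round libraries, and at 18.02 TPM in its sirloin library, against 3.59 to 11.7 TPM. The part of both lists in the diet values was not tested. TRIB3 is a pseudokinase that restrains ATF4 and insulin signalling. Its control values were 0.633, 3.43, 1.16 and 1.34 TPM, and its treated values 0.559, 0.191, 0.333 and 0.471 TPM. All control calves lay above all treated calves, although control replicate 1 exceeded treated replicate 1 by little. The log2 fold change was -2.07 (SE 0.53, edgeR, adjusted p = 0.864), and it ranged from -2.33 to -1.59 when each calf was left out, the smallest difference being without control replicate 2. DESeq2 gave an adjusted p of 0.0273. The counts behind these values were low, between 19 and 551 per library.

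DDIT3 encodes CHOP, a transcription factor linked to cell death under prolonged stress. Its round values were 31.6, 25.0, 22.5 and 35.9 TPM in the control and 10.04, 22.9, 12.6 and 12.0 TPM in the treated calves. Treated replicate 2 lay at the level of the lower control calves, and the groups overlapped in TPM but not in CPM. The log2 fold change was -1.13 (SE 0.30, edgeR, adjusted p = 0.864), and -1.40 to -0.98 when each calf was left out. The DDIT3 gene overlaps MARS1 in the annotation, and ATF5 overlaps IL4I1 and NUP62. Whether the counting used strand is not given in the sources used here, so counts of these 2 members are uncertain.

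SESN2, a stress-induced inhibitor of mTORC1, had 0.699, 8.85, 0.386 and 1.00 TPM in the control and 0.612, 0.613, 0.308 and 0.367 TPM in the treated calves. Control replicate 2 alone was far above the rest. The log2 fold change was -2.49 (SE 0.81, edgeR, adjusted p = 0.864), but -0.76 without control replicate 2. The same library had the highest TRIB3 (3.43 TPM), the highest CHAC1 (20.1 TPM) and the highest sum of tendon markers; the part of those markers in the result was not tested.

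CHAC1 had 3.76, 20.1, 9.54 and 2.49 TPM in the control and 5.11, 0.782, 6.76 and 5.48 TPM in the treated calves. Treated replicate 2 was far below the other treated calves, and the groups overlapped. The log2 fold change was -0.95 (SE 0.67, edgeR, adjusted p = 0.864) and -0.35 without control replicate 2. DDIT4, another mTORC1 inhibitor, which also responds to glucocorticoids and low oxygen, had 118, 94.2, 214 and 236 TPM in the control and 71.3, 102, 172 and 677 TPM in the treated calves. Treated replicate 4 alone exceeded all control calves, and the log2 fold change of 0.53 (SE 0.64) turned to -0.71 without it. The immediate early genes of that round library summed to 661 TPM, against 75.8 to 259 TPM in the other 7 round libraries, and their part in the DDIT4 value was not tested.

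PSAT1 in round muscle had a log2 fold change of 0.27 (SE 0.89), which became -1.86 without treated replicate 4. ASNS had 0.26 (SE 0.61) and -0.59 without the same calf, and PHGDH had 0.30 (SE 0.69). ATF5 had 32.2, 21.9, 25.8 and 10.4 TPM in the control and 23.8, 18.4, 43.5 and 25.3 TPM in the treated calves, with overlapping groups and a log2 fold change of 0.16 (SE 0.37). ATF4 had 659, 493, 632 and 419 TPM against 389, 525, 662 and 490 TPM, and -0.20 (SE 0.26).

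In round muscle, 0 of the 10 genes passed edgeR's adjusted threshold, as did 0.0185% of all 21677 tested genes, and 1 passed with DESeq2 (TRIB3), beside 0.212%. At an unadjusted p under 0.05 the count was 3 of 10 (TRIB3, DDIT3 and SESN2), beside 4.41%. Groups did not overlap in CPM for 2 of 10 (TRIB3 and DDIT3), beside 1.76%. Since the members were chosen with these differences known, nothing is read from these shares.

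In sirloin muscle the sign of the diet difference was other than in round muscle for TRIB3, CHAC1 and PHGDH, and the same for the other genes. PHGDH differed by less than its standard error in both muscles. TRIB3 had 0.314, 0.240, 0.116 and 0.389 TPM in the control and 0.227, 0.342, 0.184 and 1.49 TPM in the treated calves. Treated replicate 4 alone, the library with the adipocyte genes, lay above the control range. The log2 fold change was 0.90 (SE 0.69, edgeR, adjusted p = 0.891), and -0.27 without treated replicate 4. The positive value in sirloin muscle thus rested on that calf, and the part of the adipocyte genes in it was not tested.

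CHAC1 had 2.46, 2.93, 8.12 and 1.80 TPM in the control and 5.27, 9.64, 18.3 and 5.25 TPM in the treated calves. Only control replicate 3 exceeded the lowest treated calves, and the log2 fold change was 1.13 (SE 0.55, edgeR, adjusted p = 0.876), or 0.59 to 1.83 with each calf left out, the lowest without treated replicate 3 and the highest without control replicate 3. ATF5 had 23.4, 6.60, 6.52 and 7.18 TPM against 11.2, 7.40, 35.1 and 48.8 TPM, and a log2 fold change of 1.12 (SE 0.65), which was 1.85 without control replicate 1 and 0.54 without treated replicate 4. ASNS had 0.91 (SE 0.87), and 2.29 without control replicate 1, where its sirloin level was more than 4 times that of any other control calf.

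PHGDH depended most on single calves in sirloin muscle. Its log2 fold change was -0.05 (SE 1.47) with all calves, 3.44 without control replicate 1 and -1.48 without treated replicate 3, the calves with the highest sirloin level in each group. DDIT3 had 20.1, 9.13, 18.04 and 29.5 TPM in the control and 9.53, 23.1, 19.7 and 19.8 TPM in the treated calves, with a log2 fold change of -0.28 (SE 0.37). SESN2 stayed between 0.245 and 0.7005 TPM in all 8 sirloin libraries (log2 fold change -0.19, SE 0.43). PSAT1 (0.29, SE 0.70) and DDIT4 (0.31, SE 0.45) differed by less than their standard errors, as did ATF4 (-0.04, SE 0.29), for which treated replicate 2 was highest at 916 TPM.

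Of the 10 genes, 0 passed the adjusted threshold in sirloin muscle (edgeR), beside 0.00918% of all 21776 tested genes. DESeq2 and limma-voom also gave 0. At an unadjusted p under 0.05 the count was 0 of 10, beside 3.91%, and none of the 10 was free of overlap between the groups in CPM, beside 1.68%.

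**Figure D4:**
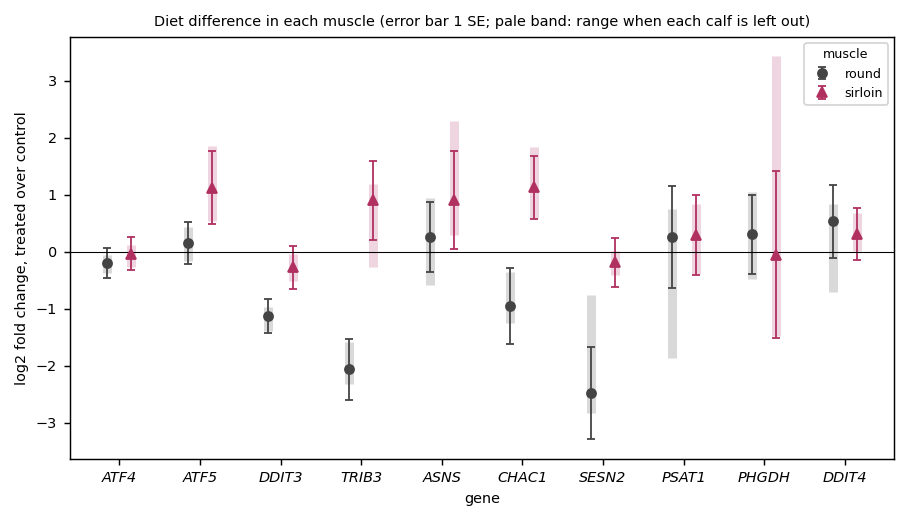
Log2 fold change of treated against control calves for each of the 10 genes in round (circles) and sirloin muscle (triangles), with bars of 1 SE and pale bands for the range when each calf is left out. TRIB3 lay at -2.07 in round and 0.90 in sirloin muscle, and its sirloin band crossed 0. Other bands that crossed 0 included the round bands of ASNS, PSAT1 and DDIT4 and the sirloin band of PHGDH.

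The difference between the diet effects of the muscles was estimated in a fit of all 16 libraries, as the effect in sirloin minus that in round muscle. TRIB3 had 3.02 (SE 0.92, log2, edgeR, adjusted p = 1) and 1.94 without treated replicate 4, where the diet difference was -2.20 in round and -0.27 in sirloin muscle. SESN2 had 2.33 (SE 0.97), and 0.68 without control replicate 2. CHAC1 had 2.11 (SE 0.95), and 1.34 to 2.71 with each calf left out. These 3 of the 10 genes were at an unadjusted p under 0.05, beside 2.78% of all 22877 genes, but 0 of the 10 and 0.0% of all genes passed the adjusted threshold, and DESeq2 and limma-voom also called none of the 10. The interaction is a description for these genes, since the opposite TRIB3 trends were among the values that chose them.

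Of the 61 other genes of the pathway, 0 passed the adjusted threshold for diet in either muscle with edgeR, DESeq2 or limma-voom. At an unadjusted p under 0.05, 1 was higher and 5 were lower in round muscle, beside 4.41% of all genes in either direction. In sirloin muscle 2 were higher and 2 lower, beside 3.91%. In round muscle, HSPA5, the main chaperone of the endoplasmic reticulum, had a log2 fold change of -1.78 (SE 0.55), DNAJB9, its co-chaperone, had -1.42 (SE 0.58) and HSP90B1, another chaperone of that compartment, had -1.20 (SE 0.54). Of the 10 genes of this list 9 were lower in round and 8 in sirloin muscle, with medians of -0.61 and -0.49, against 0.02 and 0.03 over all genes. HSPA5 in sirloin muscle had -1.77 (SE 0.68). Without control replicate 4, HSPA5 was at -0.97 in round and -0.38 in sirloin muscle, and round HSP90B1 at -0.42 and DNAJB9 at -0.99.

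PPP1R15A, the stress-induced subunit that directs dephosphorylation of eIF2, had a log2 fold change of -1.0 (SE 0.38) in round muscle, and EIF2AK3, the eIF2 kinase PERK, had -0.64 (SE 0.27). GPT2, a mitochondrial alanine aminotransferase, was at an unadjusted p under 0.05 in both muscles with opposite signs. It had 0.79 (SE 0.32) in round and -0.86 (SE 0.27) in sirloin muscle, with an interaction of -1.63 (SE 0.44, edgeR, adjusted p = 1). NUPR1, a stress-induced chromatin factor, had 0.87 (SE 0.37) in sirloin muscle and SHMT2, a mitochondrial serine and folate enzyme, had 0.71 (SE 0.28). No tRNA synthetase was at an unadjusted p under 0.05 for diet in either muscle, and in round muscle WARS1 had 0.38 (SE 0.25).

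Both muscles of a calf were also compared for the level of each gene after the diet means were removed. Pearson's r between round and sirloin log2 CPM over the 8 calves was above 0 for all 10 genes, and its median was 0.50, against 0.51 over 20576 genes. DDIT4 had the highest value (r = 0.80, exact permutation p = 0.0365, adjusted p = 0.223; Spearman's rho = 0.86, exact permutation p = 0.0260, adjusted p = 0.267), and r was 0.81 without the 2 calves farthest from the median in round muscle. DDIT3 had r = 0.77 (exact permutation p = 0.0590, adjusted p = 0.263; rho = 0.93, exact permutation p = 0.00694, adjusted p = 0.238), and r was 0.55 without those 2 calves. TRIB3 had r = 0.06 (exact permutation p = 0.898, adjusted p = 1; rho = 0.17, exact permutation p = 0.701, adjusted p = 0.9). For Pearson's r, 1 of the 10 genes (DDIT4) had an exact permutation p under 0.05, beside 20.0% of all 20576 genes. After adjustment over all genes 0 of the 10 passed, and 0 genes in all. The smallest p that exchanging calves within diets allows is 0.00174.

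Across the 16 libraries, the genes whose log2 CPM was most like that of TRIB3, among 11180 named genes with a mean of at least 1 CPM in both muscles, were the tropomyosin TPM4 (r = 0.93), the LIM protein gene CSRP2 (0.90), the tubulin TUBB6 (0.89), PGRMC1 (0.87) and CLIC1 (0.87). The libraries of one calf and one muscle share these points, so the values are descriptive. In the same ranking over 12049 genes, SESN2 stood at 232 (r = 0.68) and PSAT1 at 238 (r = 0.68), and ATF4 at 8924 (r = -0.23). TPM4 was highest in the round library of control replicate 2, at 91.2 TPM, as TRIB3 was.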

How the data were processed

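RNA-seq was measured in 16 libraries, the round and sirloin muscles of 8 calves. For 34109 genes, the authors deposited raw read counts and, in other files, TPM values that summed to between 999755.6 and 1000000 per library. The study's methods name Trimmomatic, SortMeRNA, HISAT2, Bowtie2 and StringTie, and a stranded kit that removes rRNA and globin RNA. The sample labels give poly(A) selection, and the submitters' processing notes name STAR, featureCounts, DESeq2 and build ARS-UCD1.2. These conflicts were not resolved. The authors' tables of fold changes and p-values were not used. Symbols were found for 30762 IDs (90.2%) in the ARS-UCD2.0 annotation, which served only for names and neighbouring genes. Promoter and protein sequences were not analysed here.

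The deposited counts were tested with edgeR 4.0.16 (TMM, glmQLFit and glmQLFTest, R 4.3.3), two-sided, on all genes with at least 1 count, adjusted by the Benjamini-Hochberg method at 0.05. The SE was the size of the log2 fold change divided by the square root of F. Diet was tested in each muscle, and the interaction and muscle difference in 4 groups over 16 libraries. The main fits had no block. Log2 CPM used a prior count of 2, and TPM a pseudocount of 0.1. Alternatives were DESeq2 1.42.0, limma-voom 3.58.1, RLE factors, filterByExpr, a single fit of both muscles, replicate blocks and leaving out each calf. Leaving out calves within the calf block was added after seeing the data. The pairing of the muscles by calf was inferred from the replicate numbers. After group means were removed, both libraries of a calf correlated at 0.311 to 0.765. Round and sirloin libraries of different calves of the same diet correlated at -0.524 to 0.146. Removing group means lowers the values of different calves when those of the same calf are positive. The gap between these ranges is thus partly built in. The fits were tested on simulated data. The simulated counts were drawn independently for each library, without a calf effect. They therefore cannot show how the calf block handles paired libraries.

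The members and lists were chosen with earlier results of these data known. Named were the 10 members, the called genes of each list or else its 3 smallest p-values, and the 5 genes most like TRIB3. A library was singled out when it was the highest or lowest of 4 by Dixon's ratio at the 95% level on log2 CPM.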

Additional observations from a re-analysis of the deposited data

Results flagged for a closer look

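Among 40 groups of 4 libraries (10 genes, 2 muscles, 2 diets), 3 held a library far from the others of its group, by the ratio of its gap to the group's whole range (Dixon's 95% critical value). Chance flags about 1 in 20 groups. ATF5 in the sirloin muscle of control replicate 1 had a ratio of 0.921 and lay 3.42-fold above the next control library in CPM. In the treated sirloin group, DDIT3 of treated replicate 1 had a ratio of 0.869 and lay 2.07-fold below the next library. CHAC1 in the round muscle of treated replicate 2 had a ratio of 0.881 and lay 6.98-fold below the next treated library.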

How the results depend on the processing

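Over all other settings, 122 counts of called genes stayed within 1.5 times the reported one and 19 did not. Many reported counts were 0, which limits what this range can show. DESeq2 called 1 of the 10 genes for diet in round muscle and 1 in round against sirloin muscle, and 6 of the 61 other pathway genes in the latter. With the calf as a replicate block, 1 of the 10 and 4 of the 61 were called between the muscles. With a calf also left out of that block, the counts ranged from 0 to 3 of the 10 and from 0 to 9 of the 61. Over all genes, the blocked fit called 109 with all calves and 35 to 322 with a calf left out. The fit without treated replicate 4 called the 322. Without the block and with a calf left out, the counts were 0 of the 10 and 0 to 1 of the 61, with 0 without control replicate 3 or 4. For diet, a block on the replicate number called 0 of the 10 in each muscle. These numbers do not pair calves across diets (correlations of -0.0436 to 0.290 in round and -0.280 to 0.274 in sirloin muscle). The block on the calf called 0 for the interaction.

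Between the muscles, ATF4 turned to -0.0012 with limma-voom and -0.0023 with the calf block. Leaving out a calf, it lay between -0.11 and 0.10 without and between -0.12 and 0.09 with the block (-0.035 and -0.015 without control replicates 3 and 4). CHAC1 lay between -0.43 and 0.25 without and between -0.36 and 0.24 with the block (0.20 and 0.22 without treated replicates 1 and 4). Between the muscles of a calf, the r of SESN2 turned from 0.39 to -0.37 without the 2 calves farthest from the median. The causes were not tested. TRIB3 and SESN2 rested on few counts, 17 to 551 and 26 to 1298 per library.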
